A study of Homo sapiens with 4 samples.

Results

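The 6 genes described here were MAT2A, MAT2B, AHCY, MTR, MTRR and METTL16, of 19970 protein-coding genes on chromosomes 1 to 22 and X. They were chosen by measured values, since the fold enrichment of MAT2A was among the highest of both peak lists, and the other 5 genes were added for their known roles beside it. A peak was counted at a gene when it touched the span from 5000 bp before the gene's start to 5000 bp after its end. RNA polymerase II (Pol II) was mapped by ChIP-seq, which sequences the DNA bound to an immunoprecipitated protein, in U2OS, a human osteosarcoma line. The cells were transfected with siRNA that was either a control or directed against NKAP, and grown for 48 h before fixation in 1% formaldehyde for 10 min. Each condition had 1 ChIP library and 1 input library, and the files of the 2 ChIP libraries were analysed. With 1 library per condition no difference had a replicate check, no test was made between conditions, and all intervals cover counting error only. The design asked where Pol II lies in the genome when NKAP, a nuclear RNA-binding protein, is depleted.

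The methionine cycle makes S-adenosylmethionine, the methyl donor for DNA, RNA, histones and small molecules, and recycles what is left after the methyl group is used. MAT2A encodes the catalytic subunit of the methionine adenosyltransferase found outside the adult liver, and MAT2B its regulatory subunit. AHCY splits S-adenosylhomocysteine, the product and inhibitor of methyl transfer, into homocysteine and adenosine. MTR, methionine synthase, turns homocysteine back into methionine with cobalamin and methyl folate, and MTRR reactivates it when its cobalamin is oxidised. METTL16 is an RNA methyltransferase that binds hairpins in the MAT2A transcript and promotes its splicing when S-adenosylmethionine is scarce.

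In both libraries Pol II was called at all 6 genes, with its strongest peak at a start site wherever the tables gave one. A window peak was present at 6 of 6 genes (control) and 6 of 6 (knockdown), against 70.1% and 66.5% of all protein-coding genes. The control list held 14 peaks in the 6 windows and the knockdown list 10, of 36345 and 26387 peaks in all. MAT2A held 5 of the 14 peaks (control) and 3 of the 10 (knockdown), and AHCY 4 and 3.

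The sequences under these peaks are shown first because the peak summits lay close to them. Each runs 5′ to 3′ on the strand of the gene, from 200 bases before the start site to base 25 of the transcript, for the start site nearest to the strongest control summit (RefSeq, GRCh38.p14). MTRR has no entry in the promoter table, and its peak lay at the start of FASTKD3, so that sequence is given. Capitals mark matches, on either strand, to TATAAA (the TATA box), GGGCGG (the GC box), CCAAT (the CCAAT box), CCGGAAG (an ETS site) and AAGATGG (the core of a YY1 site). CACGTG (the E-box) was searched as well and had no match in these 6 promoters, which says only that these letters are not in the window. The positions are chr2:85538968-85539192 on the plus strand for MAT2A, chr5:163505419-163505643 on the plus strand for MAT2B, chr20:34302966-34303190 on the minus strand for AHCY, chr1:236795092-236795316 on the plus strand for MTR, chr17:2511864-2512088 on the minus strand for METTL16 and chr5:7869007-7869231 on the minus strand for FASTKD3.
MAT2A: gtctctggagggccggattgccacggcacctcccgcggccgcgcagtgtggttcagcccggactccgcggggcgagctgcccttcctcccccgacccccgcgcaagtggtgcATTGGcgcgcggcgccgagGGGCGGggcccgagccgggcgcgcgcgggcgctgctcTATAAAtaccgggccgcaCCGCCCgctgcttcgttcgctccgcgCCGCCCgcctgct
MAT2B: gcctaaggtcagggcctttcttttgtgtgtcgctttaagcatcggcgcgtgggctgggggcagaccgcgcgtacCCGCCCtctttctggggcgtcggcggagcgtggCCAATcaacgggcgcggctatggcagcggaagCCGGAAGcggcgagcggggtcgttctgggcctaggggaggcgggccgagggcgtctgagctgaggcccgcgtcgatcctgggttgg
AHCY: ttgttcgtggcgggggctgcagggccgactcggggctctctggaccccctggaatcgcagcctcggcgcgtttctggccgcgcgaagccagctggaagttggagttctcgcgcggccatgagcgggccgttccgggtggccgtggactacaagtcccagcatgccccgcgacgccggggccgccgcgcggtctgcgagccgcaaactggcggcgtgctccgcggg
MTR: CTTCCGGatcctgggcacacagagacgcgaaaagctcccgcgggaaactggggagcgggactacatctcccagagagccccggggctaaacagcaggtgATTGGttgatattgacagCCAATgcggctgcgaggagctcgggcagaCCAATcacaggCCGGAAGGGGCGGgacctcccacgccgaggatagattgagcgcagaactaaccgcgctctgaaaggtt
METTL16: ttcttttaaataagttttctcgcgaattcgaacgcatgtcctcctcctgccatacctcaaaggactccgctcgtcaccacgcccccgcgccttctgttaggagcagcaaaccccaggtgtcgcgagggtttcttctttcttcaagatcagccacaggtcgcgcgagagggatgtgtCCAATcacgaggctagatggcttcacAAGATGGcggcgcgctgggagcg
FASTKD3: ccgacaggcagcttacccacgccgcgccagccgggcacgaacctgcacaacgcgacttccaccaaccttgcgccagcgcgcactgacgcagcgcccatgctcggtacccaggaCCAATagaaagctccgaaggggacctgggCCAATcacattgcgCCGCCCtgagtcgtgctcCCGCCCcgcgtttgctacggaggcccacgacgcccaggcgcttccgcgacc

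The MAT2A promoter was the only one of the 6 with a TATAAA, which 11.5% of 35116 RefSeq promoters of 300 bp hold. Its first base lay at position −32, counted so that the start base is 1 and no base is 0. The promoter also held 3 matches to GGGCGG (45% of promoters hold any) and a CCAAT on the reverse strand (34.6% hold any). MTR held 3 CCAAT and 2 CCGGAAG, the latter a motif that 10.3% of promoters hold, and MAT2B held 1 of each. METTL16 held AAGATGG, present in 5.84% of promoters, from position 3 after the start. AHCY held 2 matches to GGGCGG, at −222 and −211 and so outside the printed stretch. CACGTG was present in 7.26% of promoters. In the 300 bp promoters, 71% of the MAT2A bases, 74.3% of those of AHCY and 54% of those of METTL16 were G or C, against a median of 58.7%. These matches describe letters and not bound sites.

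MAT2A (RefSeq gene 4144) lies on chromosome 2 from 85539168 to 85545281 (hg38) and reads toward higher coordinates. Its start peak spanned 85537315 to 85541232 (control) and 85537639 to 85540871 (knockdown). The peak caller's fold, which is the pileup of reads at the summit over the local background, was 79.1 (control) and 63.5 (knockdown). Both peaks ranked 6 in their lists by fold. Next above it in the control list was a peak of fold 81.9 on chromosome 17 with no protein-coding gene end within 1000 bp, and next below was TEX2 (77.8). In the knockdown list its neighbours were a peak of fold 65.3 on chromosome 17, again with no protein-coding gene end within 1000 bp, and SRSF7 (63.4). By width the MAT2A peaks, of 3918 and 3233 bp, ranked 840 and 482. These folds chose the genes and are given as a description.

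The read counts behind these folds were recovered from the fold and the p-value of each peak. At MAT2A 179 reads covered the control summit (95% exact Poisson interval 154 to 207) and 137 the knockdown summit (115 to 162). The caller's backgrounds there were 1.28 and 1.01 reads. The depth of the knockdown library was estimated at 0.857 of the control depth. The ratio of knockdown to control reads was 0.765 (exact interval 0.608 to 0.961), so the depth ratio lay inside its interval. Over 12929 genes with a window peak in both lists the ratio of the highest summit reads had a median of 0.773 (quartiles 0.667 and 0.905). Within these genes MAT2A was at percentile 48.3 by the ratio. Among the 637 of them with at least 100 control reads the median was 0.711 (quartiles 0.643 and 0.77). Of these 637 genes, 26.7% had a ratio at least that of MAT2A. MAT2A was chosen for a high fold in both lists, so its standing among strong genes is a description.

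**Figure D1:**
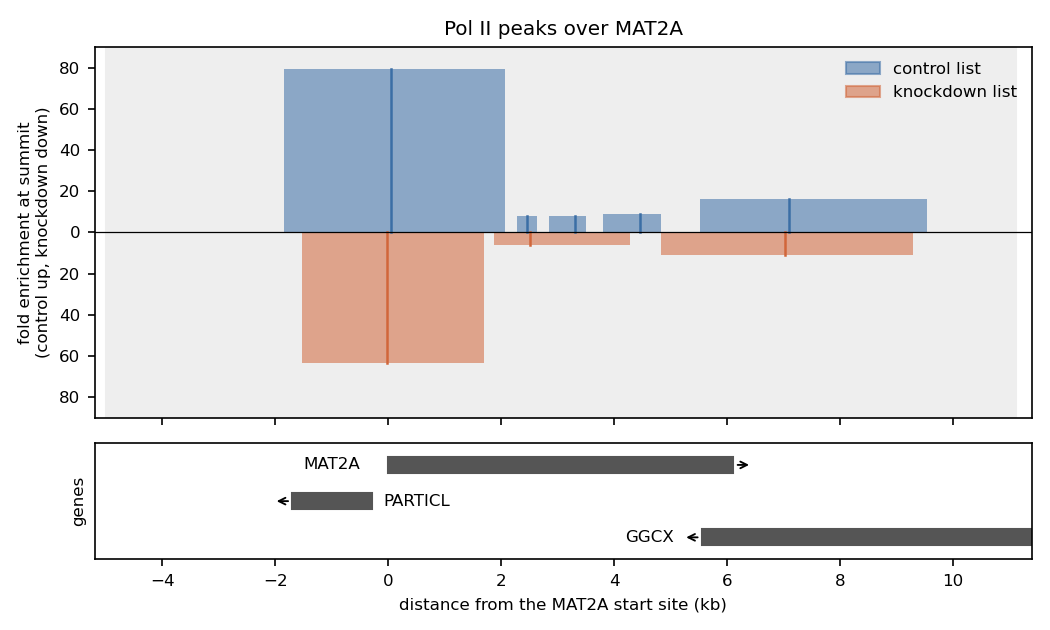
Pol II peaks over MAT2A. The upper panel plots the fold at the summit for each peak (control up, knockdown down) against distance from the MAT2A start site in kb; boxes span the peak, vertical lines mark summits and grey shading the counted window. The lower panel shows the genes, with arrows for their direction. The start peaks reach 79.1 and 63.5, and the knockdown list has a single 2406 bp peak where the control list has 3 narrower ones.

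Along the MAT2A gene the knockdown peaks covered as much as the control peaks in total length. The covered part of the window was 9966 bp (control) and 10112 bp (knockdown), a ratio of 1.01. Less was covered in the knockdown list at 86.1% of the 14342 genes with a window peak in either list, and the ratio had a median of 0.677 (quartiles 0.514 and 0.849) over genes with peaks in both. Among the latter MAT2A was at percentile 88.2. Among the 637 of them with at least 100 control reads the median was 0.703, and 2.51% had a ratio at least that of MAT2A. Past the 1000 bp next to the start, the MAT2A gene was covered over 3686 of 5113 bp (control) and 4396 bp (knockdown). Summed over 15812 genes with a listed start site, this part of the gene was covered over 10981525 and 5272649 bp, a ratio of 0.48. The ratio for MAT2A was 1.19. The knockdown library was the shallower one, and the part of depth in the covered lengths was not tested.

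This coverage came from the start peak, from weak peaks in the gene interior and from a stronger peak across the gene's end. The peak across the end began inside the gene, at 85544692 (control) and 85543995 (knockdown). It thus reached further into the gene in the knockdown list. In the gene interior the control list had 3 peaks of 355, 648 and 1029 bp, with folds of 8.02, 8.10 and 8.78 and with 18, 18 and 19 reads at their summits. The knockdown list had 1 peak of 2406 bp there, with a fold of 6.33 and 15 reads (8.4 to 24.7). The single knockdown peak overlapped all 3 of them and also the control start peak. A longer covered stretch thus came with a lower summit. Whether the caller joined neighbouring stretches differently in the 2 libraries was not tested.

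The broad peak across the end of MAT2A lay where the gene meets GGCX. GGCX encodes the vitamin K-dependent gamma-glutamyl carboxylase, reads toward MAT2A and overlaps its last 562 bp. The peak was 4016 bp wide in the control list, with a fold of 16.2 and 41 reads (29.4 to 55.6), and 4473 bp wide in the knockdown list, with a fold of 11.1 and 35 reads (24.4 to 48.7). Its summits lay 979 and 910 bp past the end of MAT2A. Peaks carry no strand, so Pol II reading through from MAT2A and Pol II reaching the end of GGCX cannot be told apart there. The start of GGCX had a separate peak, 10415 bp (control) and 10742 bp (knockdown) outside the counted window, with folds of 25.2 and 10.2. Upstream, the start peak also covered PARTICL, a long noncoding RNA gene that reads away from MAT2A from a start 282 bp before it. The control peak covered all 1420 bp of PARTICL and the knockdown peak 1248 bp, and here too the genes share Pol II signal that the peaks do not separate.

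The genes nearest to MAT2A by the highest fold in both libraries added little beyond 1 other locus. The distance was Euclidean, on the log2 of the fold over the 2 libraries. GGCX came first at 0.00, since its window reaches the MAT2A start peak. The next, all at 0.16, were CLDN9, CLDN6, TNFRSF12A, HCFC1R1 and, tied with them, THOC6, whose windows share a single peak with folds of 73.5 and 58.4 and with 188 and 133 reads. TNFRSF12A encodes the receptor of the cytokine TWEAK, and its window was covered over 7299 and 6599 bp, a ratio of 0.904.

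MAT2B (gene 27430), the regulatory subunit, lies on chromosome 5 from 163503064 to 163519354. It has 2 listed start sites, at 163503064 and 163505619, and the peaks lay at the second. Its main peak had a fold of 18.7 and 55 reads (41.4 to 71.6) in the control list, and 17.6 and 37 reads (26.1 to 51) in the knockdown list. The summits lay 134 bp (control) and 71 bp (knockdown) after that start. A weaker control peak of 510 bp, with a fold of 6.71 and 21 reads, lay between the starts, and no knockdown peak overlapped it. The covered length was 1856 bp (control) and 981 bp (knockdown), a ratio of 0.529. None of the MAT2B peaks reached the end of the gene. A peak did so at MAT2A, where the signal cannot be told apart from that of GGCX.

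AHCY (gene 191) lies on chromosome 20 from 34231981 to 34311836 in the RefSeq table, reads toward lower coordinates and overlaps ASIP, which reads the other way. Of its 3 listed starts, those at 34303355 and 34302990 lay under 1 peak in each list, and the most upstream start, at 34311802, had none within 1000 bp. The peak had a fold of 29.7 (control) and 14.1 (knockdown). There were 91 reads (73.3 to 112) at the control summit and 75 (59 to 94) at the knockdown summit. The ratio of reads was 0.824 (0.599 to 1.13), while the caller's background was 2.1 reads (control) and 4.00 reads (knockdown). The folds differed more than the reads, beside a higher caller's background in the knockdown list. Which library gave that background is not known, and the knockdown pileup was on a scale of 0.926.

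The weak AHCY peaks were not shared between the lists. The control list had 3, of folds 4.03 to 6.69, between 29282 and 31184 bp after the start at 34302990. The knockdown list had 1 of fold 5.78, 1736 bp after that start, and 1 of fold 6.50, with its summit at −4681 bp from the most upstream start, just inside the counted window. These 5 peaks had 10 to 20 reads at their summits. The covered length was 3041 bp (control) and 2678 bp (knockdown), a ratio of 0.881, so most of the AHCY coverage was the start peak of 2178 and 1851 bp.

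**Figure D2:**
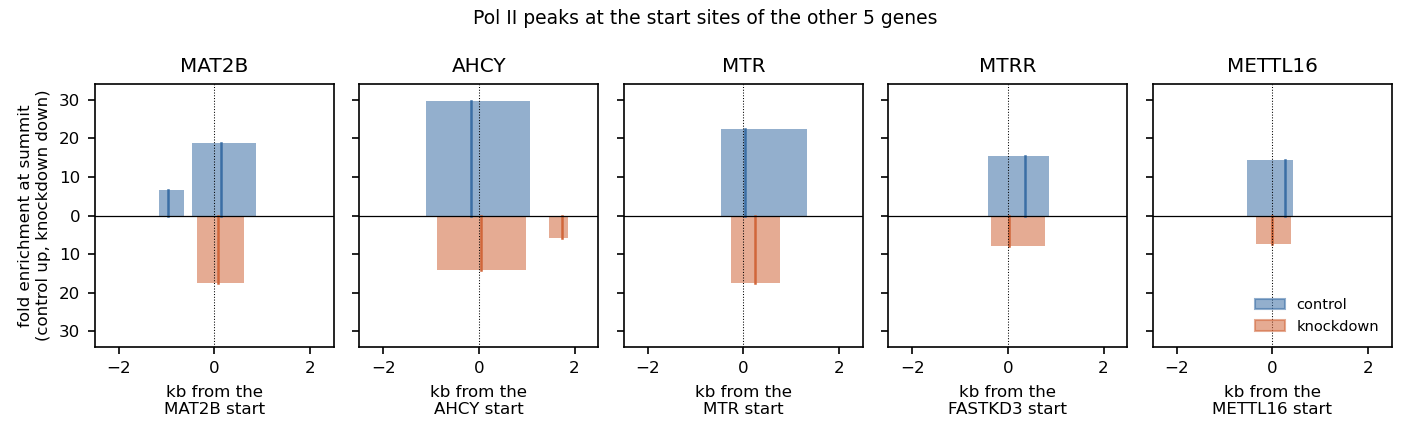
Pol II peaks at the start sites of MAT2B, AHCY, MTR, MTRR and METTL16. Each panel plots the fold at the summit (control up, knockdown down) against distance from the named start site in kb, in the direction of the gene except for MTRR, which is plotted toward higher coordinates from the FASTKD3 start; boxes span the peak, lines mark summits, and AHCY peaks far from the start are outside the panel. The highest peak of each gene has a fold of 14.5 to 29.7 in the control list and 7.39 to 17.6 in the knockdown list.

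MTR (gene 4548), methionine synthase, lies on chromosome 1 from 236795281 to 236903981 and had a single peak at its start in each list. The folds were 22.4 (control) and 17.4 (knockdown), with 47 reads (34.5 to 62.5) and 43 reads (31.1 to 57.9). Its ratio of reads, 0.915 (0.591 to 1.41), was the highest of the 6 genes. The control peak was 1807 bp wide and reached further into the gene than the knockdown peak of 1016 bp, a ratio of 0.562 in covered length. The summits lay 40 and 239 bp after the start at 236795292. The rest of this long gene held no peak in either list.

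MTRR (gene 4552), which encodes methionine synthase reductase, spans chromosome 5 from 7850859 to 7901113 in the RefSeq table. Its lower end held no peak, and the only peak of each list began, in the control list, 17748 bp inside it, at the start of FASTKD3. FASTKD3 encodes a mitochondrial protein of RNA metabolism and reads toward lower coordinates; MTRR and FASTKD3 are known to be transcribed in opposite directions from a shared promoter. From the FASTKD3 start at 7869031, and in its direction, the summits lay at −353 bp (control) and −30 bp (knockdown). The folds were 15.4 and 7.89, with 45 reads (32.8 to 60.2) and 33 reads (22.7 to 46.3) and backgrounds of 1.99 and 3.00 reads. Peaks carry no strand, so the share of MTRR in this signal cannot be told apart from that of FASTKD3. Covered lengths of 1276 and 1115 bp gave a ratio of 0.874.

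METTL16 (gene 79066) lies on chromosome 17 from 2415715 to 2511888, reads toward lower coordinates and had the weakest main peak of the 6 genes in both lists. Its folds were 14.5 (control) and 7.39 (knockdown). There were 30 reads at the control summit (20.2 to 42.8) and 14 at the knockdown summit (7.65 to 23.5), with backgrounds of 1.14 and 0.89 reads. The ratio of reads was 0.467 (0.229 to 0.908), the lowest of the 6 genes, at percentile 2.24 of the 12929 genes. Its interval still held the median of all genes, 0.773, and the depth ratio, 0.857. The control summit lay 259 bp after the start and the knockdown summit 10 bp before it. The nearest peaks outside the window, 3234 and 3416 bp beyond it past the end of the gene, had folds of 7.94 and 6.90.

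**Figure D3:**
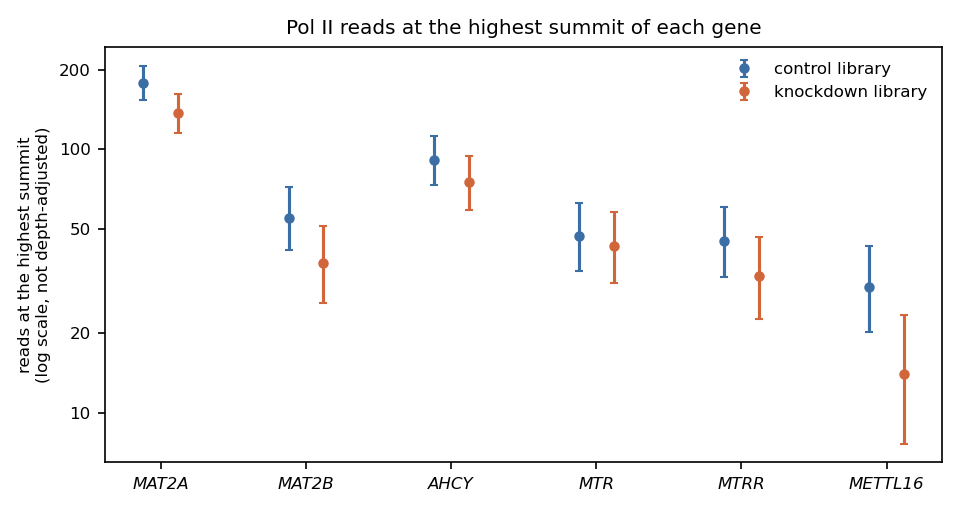
Reads at the highest summit of each gene in the control and knockdown libraries, on a log axis and not adjusted for depth. Points are the recovered reads and bars the 95% exact Poisson intervals, which cover counting error only. MAT2A has 179 and 137 reads, and METTL16 30 and 14.

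Across the 6 genes, the order of the summit reads in the control library was MAT2A (179), AHCY (91), MAT2B (55), MTR (47), MTRR (45) and METTL16 (30). In the knockdown library it was MAT2A (137), AHCY (75), MTR (43), MAT2B (37), MTRR (33) and METTL16 (14). The lead of MAT2A follows from how the genes were chosen. In the control library the interval of AHCY did not overlap those of MAT2B, MTR, MTRR and METTL16. The intervals of MAT2B, MTR and MTRR overlapped in both libraries, so their order was not resolved. In covered length, 5 of 6 genes had less in the knockdown list, with MAT2A the exception, against 86.1% of genes. The 6 windows together were covered over 18908 bp (control) and 16647 bp (knockdown), a ratio of 0.88, with median folds of 11.6 and 9.49. MAT2A supplied most of both sums. Of the 14 control peaks 10 were overlapped by a knockdown peak, against 54.2% of all control peaks, and of the 10 knockdown peaks 8 were overlapped by a control peak, against 82.8%.

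**Figure D4:**
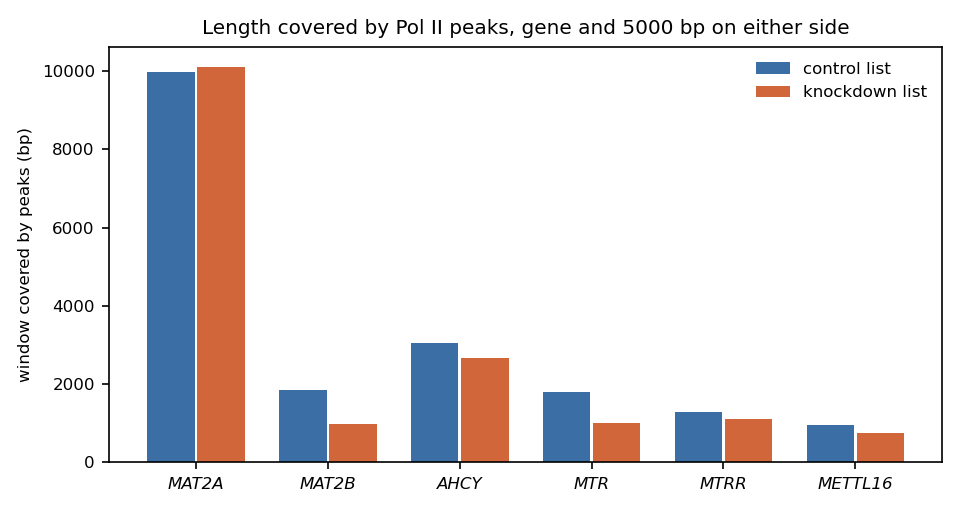
Length of each gene's window (the gene and 5000 bp on either side) covered by peaks, in bp, for the control and knockdown lists. MAT2A has 9966 and 10112 bp, and the other 5 genes have 745 to 3041 bp, less in the knockdown list for each.

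Related genes of the pathway were taken from 8 lists with 85 genes, all of which matched the gene table. A window peak was present at 80 of them (control) and 78 (knockdown), beside 70.1% and 66.5% of all protein-coding genes, which are also the shares to read the counts of each list against; 3 were in the control list only, against 5.34% of all genes, and 1 in the knockdown list only, against 1.74%. The median ratio of covered length over the 77 with peaks in both was 0.668, beside 0.677 for all genes, and that of the highest summit reads 0.736, beside 0.773. Of 81 with a peak, 74 had less covered length in the knockdown list and 7 more, near the share of 86.1% with less over all genes.

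The genes without a peak in either library were 4 members of the methionine cycle list, MAT1A, BHMT, BHMT2 and GNMT. MAT1A encodes the catalytic subunit of the adult liver, BHMT and BHMT2 encode methyltransferases that remake methionine without cobalamin, and GNMT a glycine methyltransferase that uses up S-adenosylmethionine; all are known as genes of the liver. Of 8 hepatocyte markers, 7, among them ALB, APOB and TTR, likewise had no peak, and the peak of CPS1 lay within 1000 bp of an end of LANCL1. The other 3 genes of the list, AHCYL1, AHCYL2 and ADK, had peaks in both lists. ADK, adenosine kinase, which removes the adenosine that AHCY releases, had folds of 29.5 and 22.8, and AHCYL1 16.5 and 4.18.

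Transsulfuration, which leads homocysteine to cysteine and glutathione, had peaks at 4 of 4 genes in both lists, with folds at GCLC of 29.1 and 18.8 and at CTH of 27.6 and 24. Methionine salvage and polyamine synthesis, which uses decarboxylated S-adenosylmethionine, had them at 12 of 12. ODC1, ornithine decarboxylase, had folds of 59.2 and 32.4 and 196 and 139 reads. ENOPH1, of the salvage pathway, had 41.4 and 41.7, on a peak that also lay at an end of HNRNPDL. The folate cycle, which supplies the methyl group to MTR, had 16 of 17 in each list. TYMS, thymidylate synthase, had folds of 43.2 and 20.7, and MTHFD2, a mitochondrial folate enzyme, 36.4 and 28.3. SHMT1, the cytosolic serine hydroxymethyltransferase, was in the control list only (fold 8.36), and FTCD in the knockdown list only (fold 10.8), on a peak at an end of COL6A2.

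Cobalamin handling had 9 of 9 genes (control) and 8 of 9 (knockdown). TCN2, a cobalamin carrier, was in the control list only, with a peak of fold 5.31 at an end of PES1. CD320, the receptor for that carrier, had folds of 30.4 and 23, on a peak shared with NDUFA7, and MMAA 22.9 and 25. Methionine transport and sensing had 6 of 6 in both, led by SLC38A2 (52.7 and 16.3), SLC7A5 (48.2 and 38.7) and SLC3A2 (48.2 and 49.5), where SLC7A5 and SLC3A2 form the transporter that carries methionine. Genes of N6-methyladenosine and of MAT2A transcript processing had peaks at 19 of 19 (control) and 18 of 19 (knockdown). FTO, a demethylase, was in the control list only (fold 7.18), and WTAP and RBM15B, of the METTL3 complex, had folds of 42.7 and 29.1 and of 31.5 and 15.5. The RBM15B control peak lay at ends of DOCK3 and MANF as well. All 19 had less covered length in the knockdown list, beside 86.1% of all genes with a peak. Among the 11 users of S-adenosylmethionine, all with peaks in both lists, NNMT, nicotinamide methyltransferase, had folds of 47.2 and 16.6, and NSD2, a histone methyltransferase, 31.8 and 23.1.

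**Figure D5:**
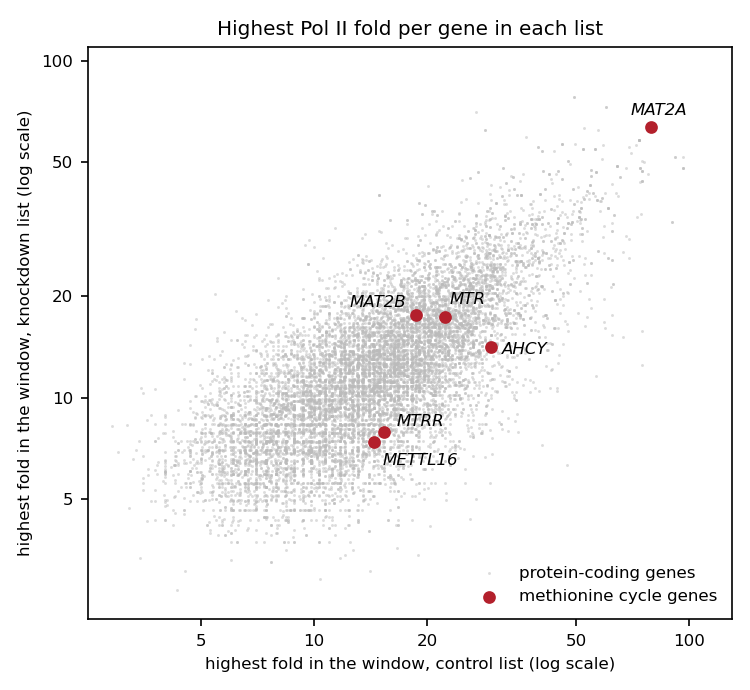
Highest fold in the gene window in the control list against the knockdown list, both on log axes, for 12929 protein-coding genes with a peak in both lists (grey) and the 6 methionine cycle genes (red). MAT2A lies at 79.1 and 63.5, and the other 5 genes lie within the body of the cloud.

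The lowest −log10 q-value was 3.01 (control) and 3.02 (knockdown), so a region without a peak can hold Pol II below that level, and the median peak had 18 (control) and 19 (knockdown) reads. NKAP had 1 peak in each list, with folds of 6.07 and 6.90, which does not check an siRNA that acts on the transcript. Markers of mesenchymal and osteoblast cells had a window peak at 6 of 8 genes in both lists, with none at COL1A2 and SPP1. Neuron markers had 6 of 6 (control) and 5 of 6 (knockdown, without GAD1). The counts of all marker lists stand beside 70.1% (control) and 66.5% (knockdown) of all protein-coding genes. Of the lymphocyte markers, PTPRC had folds of 10.7 and 5.43 and MS4A1 of 10.8 and 10.7, with no other protein-coding gene end within 1000 bp of those peaks. CD79A had folds of 54.1 and 19.6, on a peak at an end of RPS19. What these peaks stand for in U2OS was not tested.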

How the data were processed

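Pol II ChIP-seq of U2OS cells was analysed from the peak lists of 2 ChIP libraries, 1 per siRNA; the 2 input libraries were not used here. MACS2 2.1.0, Bowtie 1.1.2, Trimmomatic 0.33 and bcl2fastq 2.17, with build hg38, are named per the submitters' processing notes. The settings and the library used as background were not given in the sources used here. The authors called peaks per sample, not on pooled samples. The deposited values per peak were a score, the fold (ratio) of the summit over the local background, −log10 p-values and q-values, and the summit position. The fold and p-values are the authors' and were ranked only within a list. Folds of the 2 lists were set side by side as given, and the distance to MAT2A used both.

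Peaks on chromosomes 1 to 22 and X were kept, and peaks sharing at least 1 bp were overlapping. Reads at each summit were recovered from fold = (pileup + 1)/(background + 1) and a Poisson p; they fitted within 0.01 of the −log10 p for 36342 of 36345 peaks (control) and 26386 of 26387 (knockdown). The knockdown pileup was fitted with a scale of 0.926. The depth ratio of 0.857 came from the lowest backgrounds, with the smallest peak width (229 and 225 bp) as fragment length. The recovery was tested on simulated data.

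Gene spans came from the RefSeq table (GRCh38.p14), and start sites and strand from the RefSeq promoter table, which covers 250 bases before to 50 after each start. The genes and lists were chosen with earlier results of these data known, and the motifs after the sequences were seen. From the lists, genes with a peak in 1 list only or in neither were named, and the 2 of highest control fold per list (3 where tied), with the 5 genes nearest to MAT2A and any tied with them. Alternatives were other windows, a −log10 q of at least 5, equal numbers of strongest peaks, other overlap rules, ranking by −log10 p and all sequences. Scripts used Python 3.11.15, pandas 2.3.3, numpy 2.4.6, scipy 1.17.1 and matplotlib 3.10.9.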

Additional observations from a re-analysis of the deposited data

How the results depend on the processing

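Of 77 values recomputed under the alternatives, 74 stayed within 1.5 times the main value (or, for percentiles, its 95% Wilson interval), 3 moved and 0 reversed. With gene windows of 0 bp, the covered length of the 6 genes in the knockdown list was 10914 bp, since flanks were left out. Ranked by −log10 p, MAT2A stood at percentile 99.948 of the control list and 99.951 of the knockdown list, against 99.986 and 99.981 by fold. The covered-length ratio of MAT2A ran from 1.01 to 1.15 over its 5 alternatives, and that of AHCY from 0.742 to 0.984. The covered lengths along the MAT2A gene were the same with a −log10 q of at least 5 and with equal numbers of strongest peaks. Neither setting could change them, since the lowest −log10 q of a MAT2A peak was 7.21. Equal numbers removed only control peaks below a −log10 p of 9.06, and the lowest MAT2A control peak had 15.1. No paired analysis was possible because each condition had 1 ChIP library and the result comes from no test. Summits of 8 to 20 reads limit what can be said of the weak peaks.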

Other observations

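Several genes of the wider lists had far less covered length in the knockdown list, and they are named here after their values were seen. SHMT2, the mitochondrial serine hydroxymethyltransferase, was covered over 3738 bp (control) and 370 bp (knockdown), with highest folds of 9.17 and 4.65. TYMS had 10668 and 2687 bp, SLC7A5 13966 and 4042 bp, and AZIN1, the antizyme inhibitor that spares ODC1, 7538 and 2251 bp. MTHFD1L, the mitochondrial folate synthetase, had 13070 and 13185 bp, a ratio of 1.01 like that of MAT2A. PSAT1, of serine synthesis, had 755 and 965 bp. These are values of 1 library per condition and were not tested.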
